A study of Mus musculus with 21 samples.

Results

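VDR cells treated with a control siRNA were compared with untreated VDR cells by their open chromatin. The comparison used 6 of the 21 libraries of the series, 3 of the control siRNA group (siNC) and 3 of the untreated group. VDR is a mouse medulloblastoma cell line per the labels. Each library was a list of ATAC peak summits, the positions where a peak of open chromatin is highest, with a score for each. From each list the same number of top-scoring summits was kept, 10000 in a strict setting and 100000 in a broad one. Equal numbers were kept because scores from libraries of unlike depth cannot be set against each other.

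The series profiled 7 groups of 3 libraries with Omni-ATAC, in which a transposase cuts accessible DNA. Besides siNC and untreated cells, VDR cells were treated with siRNA against Nfia (siNfia) or Nfib (siNfib). Cells sorted for EGFP from Atoh1-EGFP mouse cerebella made up the other groups, which were granule neuron progenitors (GNP, titled Ptch1GNP, with no genotype in the labels) at postnatal day 7, hyperplasia at postnatal day 28 and medulloblastoma tumors. These groups serve below only as references. The labels call the reagents siRNA, but the list names start with sh, and which was used is not certain. The sequence of the control siRNA, the way it was delivered, the time after it and the date of any library are not given in the sources used here. Treatment therefore cannot be told apart from differences in delivery, culture or library preparation. The labels do not say whether replicates are separate cultures, so a p-value here measures only the spread between these libraries.

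A control siRNA has no intended target and serves as the baseline for the knockdowns. Open chromatin marks active promoters, most of which stay accessible in every cell type, and distal enhancers, which differ between cell types. Medulloblastoma of the Hedgehog type arises from granule neuron progenitors of the cerebellum, whose identity rests on transcription factors such as Atoh1, the Zic family, Barhl1, Pax6 and Meis1. Small RNAs can also be sensed by cells, which then switch on interferon-stimulated genes.

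The lists differed in length and strength. The whole siNC lists held 192817, 228691 and 221755 summits and the untreated ones 194134, 159720 and 178840. At rank 100000 the score was 4.95, 5.96 and 9.61 in the siNC lists and 3.84, 3.76 and 3.97 in the untreated lists. Read depth is unknown. In the untreated lists 24.8% to 28.1% of all summits shared the score at rank 100000, so 9100 to 12662 of the kept summits were drawn from these ties in a fixed random order. Of the siNC lists 2.91% to 10.6% were tied there. The signal strength of a library moved with the treatment throughout, and its part in the results below was not tested.

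Among the 10000 strongest summits the groups held much the same sites. Of these untreated summits, 98.0% ± 1.81 (SD, n = 3) lay within 250 bp of a summit among the 100000 of the siNC lists. Of the siNC summits, 95.3% ± 0.670 were found in the same way in the untreated lists. The overlap between lists, as the Jaccard index of occupied 500 bp regions, was 0.612 within siNC, 0.444 within untreated and 0.445 between the groups (exact two-sided permutation p = 0.1 for the difference within groups, adjusted p = 0.14 over 14 tests). Of 16233 regions, 2903 were occupied in all 6 libraries, 405 in 3 of 3 siNC and 0 of 3 untreated libraries (gained, 2.49%) and 325 in the reverse (lost, 2%). Most of these had moved in rank. At 100000 summits, 401 of the gained regions were in at least 1 untreated list and 286 in all 3, and 324 of the lost regions were in at least 1 siNC list and 315 in all 3. The gained regions of best rank lay in Tex14 at chr11:87423553-87424052 (ranks 398, 339 and 1837 with siNC, 13044, 20581 and absent without), in Mpdz at chr4:81429686-81430185, in Cdk5rap2 at chr4:70402105-70402604, in Ppp1r17 at chr6:56027295-56027794 and in Itpr2 at chr6:146342918-146343417. Of the lost regions of best rank, 4 lay on chromosome 1. One stood 61656 bp from Gli2 at chr1:118772155-118772654, at ranks 127, 275 and 450 without treatment and 16529, 11928 and 14745 with siNC. Another was in Gli2 at chr1:118969303-118969802, and the pair near Cdh7, a cadherin gene, at chr1:109932637-109933136 and chr1:109889389-109889888. The other was near Lemd2 at chr17:27242759-27243258. Only 2 gained regions were absent from the whole untreated lists, 1 near Igdcc3 and 1 near Slfn14, and 0 lost regions were absent from the whole siNC lists.

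Among 100000 summits the groups parted in the measures below, but the untreated lists also differed from each other. The Jaccard index was 0.615 within siNC, 0.221 within untreated and 0.282 between the groups. Untreated lists thus shared less with each other than with the siNC lists on average. Summits within 1 kb of a gene start made up 24.9%, 27.3% and 28.8% of the siNC lists and 15.8%, 13.9% and 17.2% of the untreated lists. The siNC values were all above the untreated ones, with a mean of 27.0% ± 1.98 against 15.6% ± 1.61 (exact two-sided permutation p = 0.1, the smallest 3 against 3 can give, adjusted p = 0.14). At 10000 summits the shares were 44.0% ± 2.67 and 39.3% ± 2.27, and the groups overlapped (exact permutation p = 0.2, adjusted p = 0.233). Summits also found in the tumor lists made up 61.2%, 66.9% and 69.4% in siNC against 40.6%, 34.7% and 43.6% in untreated cells, again without overlap. Starts of 37 ribosomal protein genes, which encode parts of the ribosome and are open in every cell, were held at 37, 37 and 37 with siNC and at 33, 27 and 36 without treatment. At 10000 summits they numbered 10, 7 and 17 against 16, 13 and 14, so the order of the groups was not the same.

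**Figure D1:**
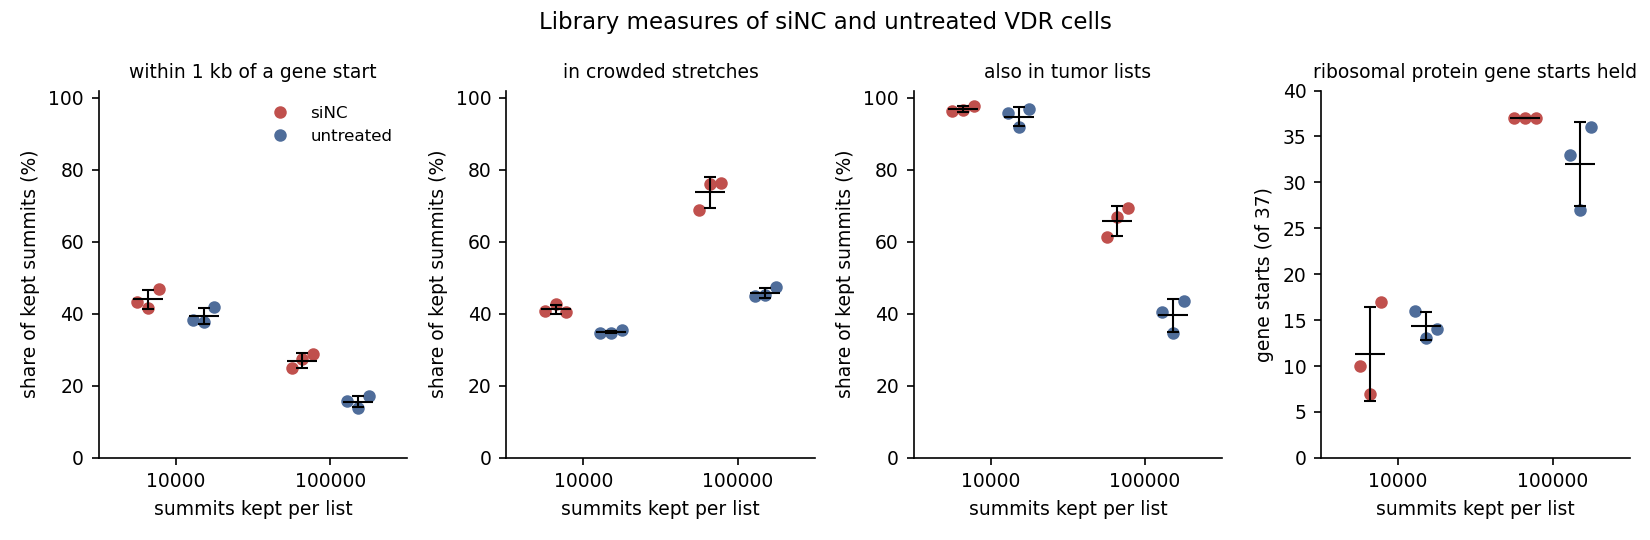
Each point is 1 library, with the mean and SD over 3 libraries in black, at 10000 and 100000 summits kept per list. The 4 panels give the share of summits within 1 kb of a gene start, the share with another kept summit within 1 kb (crowded), the share also found in tumor lists (all in %), and the number of 37 ribosomal protein gene starts held. At 100000 summits siNC lay above untreated in all 4 panels.

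The difference was small at the top ranks and widest in the middle ones. Untreated summits found in the siNC lists made up 98.0% at ranks 1 to 10000, 33.6% in the fifth of 10 bins of 10000 ranks and 14% in the last. For siNC summits, matched to the other siNC lists, the shares were 99.8%, 86.4% and 41.1%. For untreated summits, matched to the other untreated lists, they were 95.0%, 28.7% and 13.4%, each below the share found in the siNC lists. The weakest untreated summits were therefore mostly seen in a single untreated library. Gene-start summits made up 6.36% of the last untreated bin and 15.9% of the last siNC bin.

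**Figure D2:**
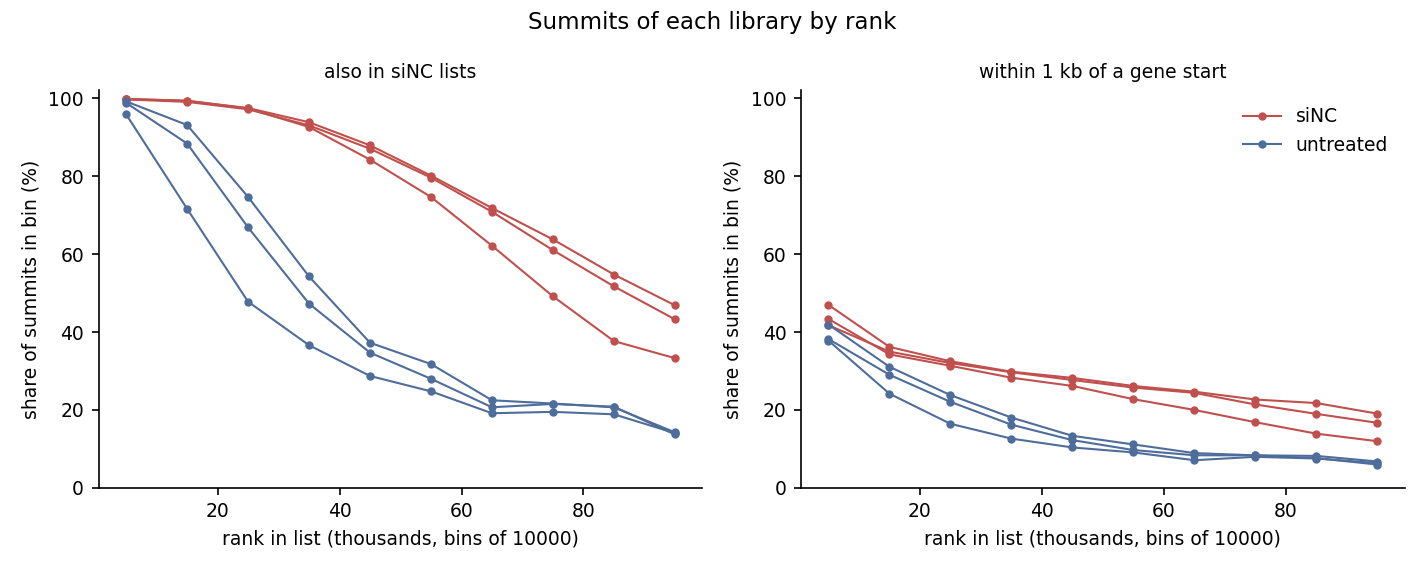
Each line is 1 library, with the 100000 kept summits in bins of 10000 ranks on the x axis. The left panel gives the share of each bin with a summit in the siNC lists within 250 bp (a siNC library is matched to the other siNC libraries only), and the right panel the share within 1 kb of a gene start. Untreated lines drop to 14% and siNC lines to 41.1% on average in the last bin of the left panel.

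In regions, 212938 were formed at 100000 summits, of which 6963 were gained with siNC (3.27%) and 1183 were lost (0.556%). Another 18564 were occupied in all 6 libraries and 133146 in only 1, of which 111250 were in a single untreated library. Gained regions were occupied in 78.7% ± 3.08 with siNfia, 74.3% ± 2.17 with siNfib and 57.3% ± 1.29 in tumor (n = 3 libraries each). Lost regions were occupied in 7.47% ± 1.38, 11.3% ± 1.28 and 13.0% ± 0.399 of the same libraries. Of all regions the shares were 26.8%, 26.7% and 24.5%. Regions of best rank at this length were named after their values were seen. The first gained one lay near Igdcc3 at chr9:65194450-65194949, at ranks 7196, 4641 and 6297 in siNC, and was absent from the untreated lists. Others lay near Trim27 at chr13:21170077-21170576, in Tex14 at chr11:87463119-87463618, near Aurkaip1 at chr4:155830781-155831280 and near Iqcm at chr8:76051966-76052465. Lost regions of best rank lay in Elfn2 at chr15:78670108-78670607, in Grm4, a glutamate receptor gene, at chr17:27448801-27449300, near Tmem267 at chr13:119616130-119616629, near Defb28 at chr2:152516117-152516616 and, with no gene within 100 kb, at chr17:45873430-45873929. Coordinates are on mm10, 1-based.

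Lost regions were spread unevenly over chromosomes. Chromosome 1 held 30.6% of the lost, 7.42% of the gained and 11.2% of all regions, and chromosome 17 held 18.9%, 4.16% and 7.42%. Dense runs were made of 1 Mb bins with a mean of at least 100 untreated summits. In these bins every untreated library had at least 2 times the summits of any siNC library. Thinner bins were left out, such as that at 116 Mb of chromosome 1 (64, 63 and 48 against 0 in each siNC library). The rule was chosen after the values were seen, and its runs held 480 of the 1183 lost regions. The rule itself favours lost regions there, so nothing is read from that count. There were 13 such runs over 21 of 2506 bins (0.838%). The densest was chr1:118000001-122000000, which holds Gli2, the activator of Hedgehog target genes, and En1, a homeobox gene of the mid- and hindbrain. It had 2142, 2872 and 1940 untreated summits against 299, 286 and 266 with siNC. With siNfia it had 286 ± 8.02, with siNfib 278 ± 5.51 and in tumor 196 ± 13.9, so the untreated libraries stood apart from all of these. Beside it, chr1:123000001-124000000 had 185, 233 and 126 untreated summits, 2, 0 and 0 with siNC and 0 in each library of the other 5 groups. Another run on the same chromosome, chr1:104000001-107000000, had 713, 976 and 644 untreated summits against 211, 179 and 174. The other dense runs lay on chromosomes 2, 8, 15 and 17. In the opposite direction the floor was a mean of 50 siNC summits, so the counts of bins cannot be set against each other. With that floor, 11 bins (0.439%) were denser with siNC, in 10 runs. They include the bin of Zic1 and Zic4 (108, 138 and 148 summits against 38, 16 and 35) and bins over the histone gene cluster of chromosome 13 (155, 179 and 185 against 65, 39 and 64 in the first of them).

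**Figure D3:**
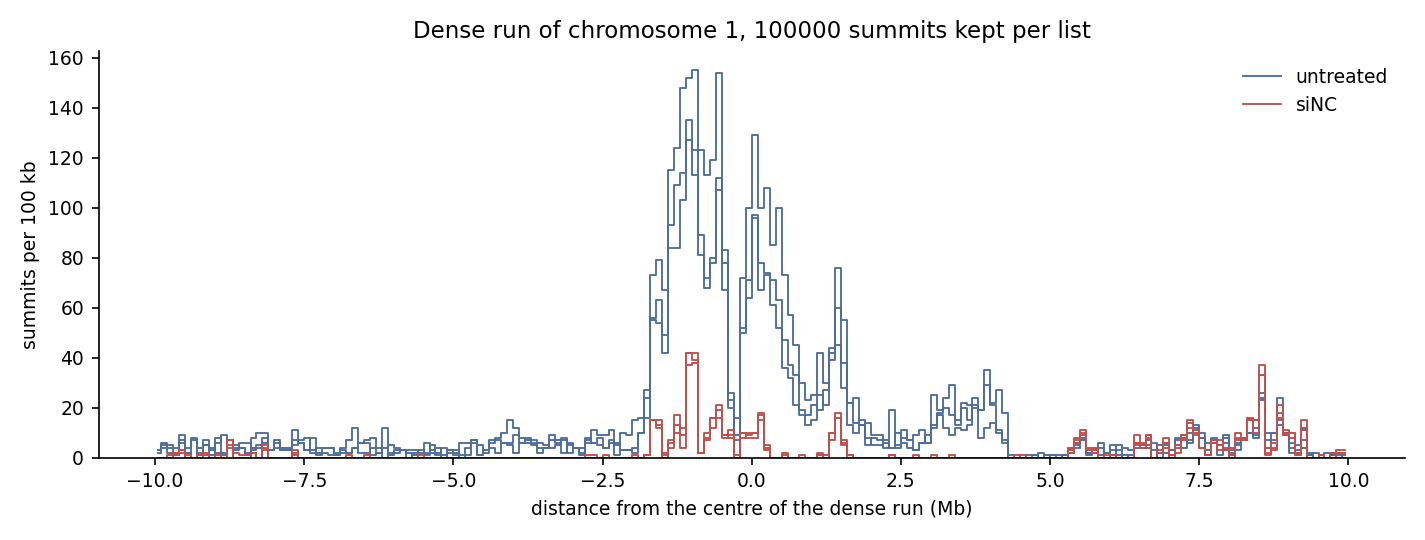
Lines give the summits per 100 kb along chromosome 1 in each of the 6 libraries, by distance in Mb from the centre of the dense run. The 3 untreated libraries reach far above the 3 siNC libraries inside the run, while all 6 lie close together at the right end of the plot.

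Whole chromosomes differed too. At 100000 summits the shares of 18 of 21 chromosomes (85.7%) did not overlap between the groups, 13 higher in siNC and 5 higher in untreated cells. Chromosome 1 held 7.97% ± 0.202 of siNC and 11.8% ± 1.02 of untreated summits, and chromosome 17 5.73% ± 0.292 and 8.21% ± 0.659. Chromosomes 6, 8 and 15 were the other 3 higher in untreated cells. At 10000 summits 12 of 21 did not overlap (57.1%). Chromosomes 6 and 15 were then higher in siNC and chromosomes 5 and 9 higher in untreated cells, each the reverse of the order at 100000 summits.

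Gene by gene, the number of occupied regions in a gene or nearest to it was tested with limma, on log2(regions + 1), in 6744 genes with a mean of at least 3 regions. With siNC 500 genes had more regions (7.41%) and 1435 had fewer (21.3%) at a Benjamini-Hochberg adjusted p below 0.05. The groups did not overlap in 2674 genes (39.7%). The order of tied summits changed which genes were called. With a second random order 391 of the 500 and 1261 of the 1435 were called again, and with genome order 399 and 1119. The median log2 change over all genes was -0.16. When each library was scaled to the same total, that median was 0.17, and 1385 genes had more and 933 fewer, so the balance of directions depends on the scaling. Without siNC replicate 1, 2 or 3 the genes with more regions numbered 196, 104 and 94, and without siNC replicate 2 or 3 the genes with fewer numbered 801 and 710. The share of genes with fewer regions was 44.1% on chromosome 17, 36.2% on chromosome 15, 33.3% on chromosome 8, 32.1% on chromosome 6 and 30.6% on chromosome 1, and 0 of 59 genes on chromosome X. Genes with more regions made up 39.0% on chromosome X, 23.3% on chromosome 14 and 0.942% on chromosome 8.

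**Figure D4:**
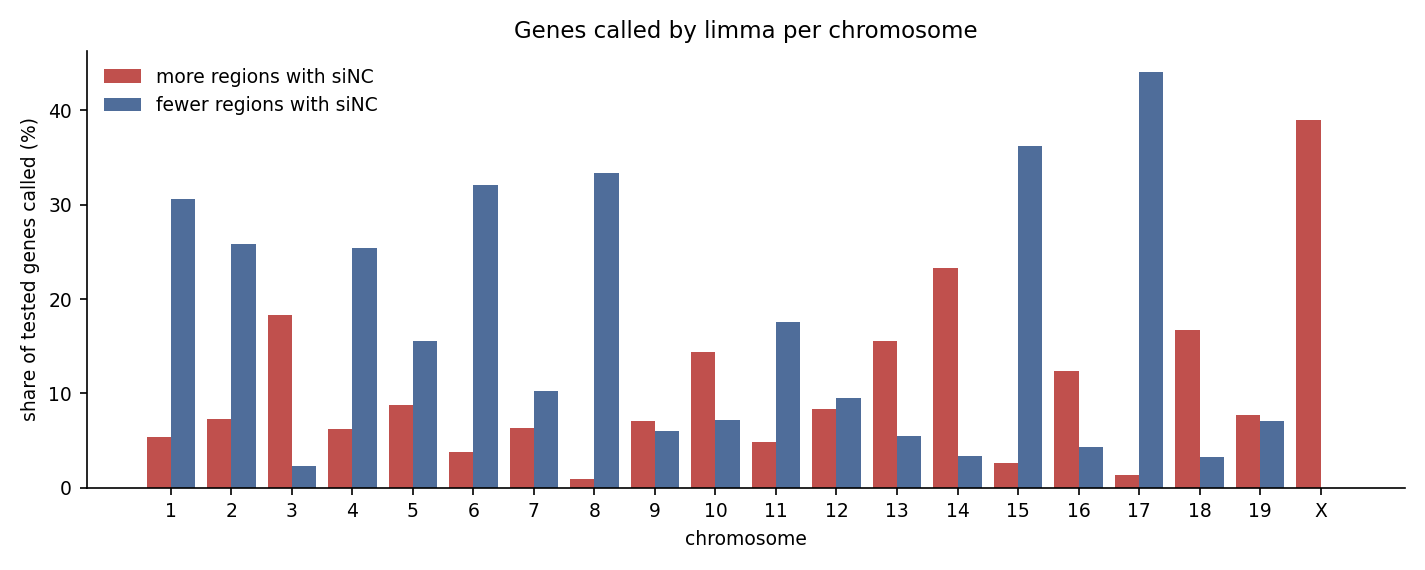
Bars give, for each chromosome except Y, the share in % of tested genes with more or with fewer occupied regions in siNC than in untreated cells by limma. The blue bars are highest on chromosomes 17, 15 and 8 (44.1%, 36.2% and 33.3%) and the red bars on chromosomes X and 14 (39.0% and 23.3%).

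Genes of granule neuron progenitors had more regions with siNC. Of 18 tested, 10 rose and 1 fell, with a median log2 change of 0.78, where 7.41% of all tested genes rose, 21.3% fell and the median was -0.16. Zic1, a zinc finger factor of the progenitors, had 12, 13 and 15 regions with siNC and 2, 3 and 4 without treatment (log2 change 1.87, SE 0.22, limma adjusted p = 0.00252). Its neighbour Zic4 had 22, 33 and 32 against 8, 5 and 10 (1.81, SE 0.27, adjusted p = 0.0048). Tcf4, a bHLH factor that pairs with Atoh1, had 45, 44 and 36 against 15, 12 and 13 (1.57, SE 0.15, adjusted p = 0.00125). Meis1, a homeobox factor of these cells, had 21, 21 and 20 against 9, 6 and 8 (1.34, SE 0.17, adjusted p = 0.00285). In these 4 genes the groups lay well apart, and the calls held whichever library was left out. Zic2, Barhl1, Barhl2, Pax6, Zic5 and Atoh1 also rose, by 0.52 to 1.16 on the log2 scale, but each of these 6 calls ended without 1 or more libraries, siNC libraries among them for each gene. Atoh1, the factor that specifies granule progenitors, had 15, 16 and 16 regions against 10, 11 and 11, and its call ended without siNC replicate 1, 2 or 3 (highest adjusted p = 0.0878). Its start ranked 936, 617 and 681 with siNC against 3124, 6952 and 3228. The start of Barhl1 went the other way, at ranks 20854, 39276 and 32800 with siNC against 8977, 12160 and 11732. Start ranks of Barhl2, Zic5 and Pax6 overlapped between the groups. Without siNC replicate 2 or 3, or untreated replicate 1, 5 genes of the list rose. The member that fell was En1, which lies in the dense run of chromosome 1 (1, 0 and 1 regions against 47, 70 and 34). Scaled to the same total, 11 of the list rose and 1 fell. At 50000 summits 4 of 14 rose, and Tcf4 was then not called (adjusted p = 0.0574). At 10000 summits 3 genes of the list were tested and 0 were called. The starts held at 10000 summits numbered 4, 6 and 6 of 16 with siNC against 6, 6 and 5, so the groups overlapped there.

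**Figure D5:**
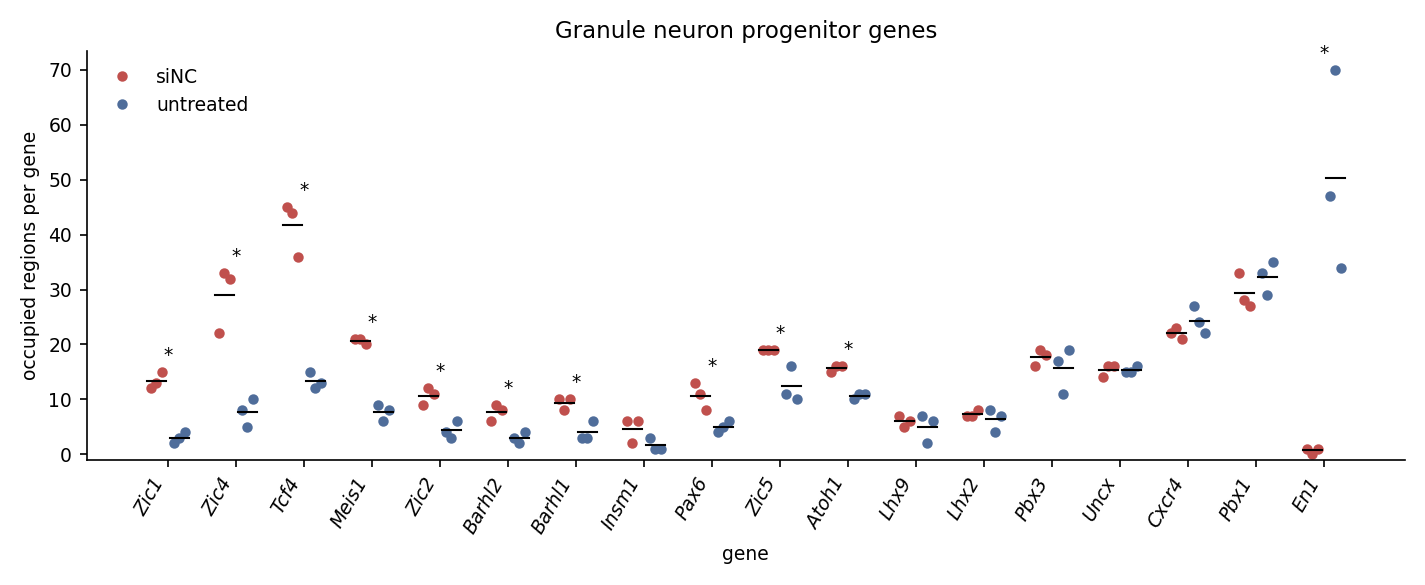
Points give the occupied regions of each of the 18 tested granule neuron progenitor genes in each library, with the group mean as a line and an asterisk where limma called a difference. In 10 genes siNC lies above untreated with no overlap and an asterisk, as in Zic1 and Zic4, and En1 is the reverse. Insm1 and 6 other genes carry no asterisk.

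Among genes of granule neuron differentiation 4 of 18 rose and 5 fell (median log2 change 0.26, against 7.41%, 21.3% and -0.16 over all genes). Snap25, a part of the synaptic vesicle fusion machinery, had 10, 9 and 10 regions against 4, 5 and 5 (adjusted p = 0.00728). Syt1, Map2 and Nrcam were the others that rose. Rbfox3, a splicing factor of mature neurons, had 22, 20 and 22 against 68, 81 and 75 (log2 change -1.76, SE 0.12, adjusted p = 0.000605). Cbln1, Cntn2, Calb2 and Nfasc also fell. The calls of Snap25, Rbfox3, Cntn2 and Nfasc held whichever library was left out, and those of the other 5 did not. Scaled to the same total, 9 rose and 4 fell.

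Of the Hedgehog pathway 0 of 16 rose and 4 fell, a share near the 21.3% of all genes that fell (median log2 change -0.11, against -0.16 over all genes). Gli2 had 67, 63 and 51 regions against 292, 349 and 285 (log2 change -2.34, SE 0.14, adjusted p = 0.000372), inside the dense run of chromosome 1. Its start was held in all 6 libraries at 10000 summits, at ranks 1031, 1152 and 830 with siNC and 122, 103 and 113 without treatment. The others that fell were Foxf1 (1, 0 and 0 against 13, 22 and 12), Foxl1 (0 in each siNC library against 15, 27 and 12) and Iqce. Foxf1 and Foxl1 are forkhead genes of mesenchyme that lie close together on chromosome 8. The receptor gene Ptch1 had 18, 16 and 13 regions against 15, 12 and 12, and its groups did not separate beyond the test (adjusted p = 0.305). The same was found for Gli1 (adjusted p = 0.542) and Mycn (adjusted p = 0.666). Gli3 had 1, 0 and 0 regions with siNC and 0 in each untreated library. Scaled to the same total, 4 of the list rose and 4 fell, so that 0 rising members is a matter of scaling. The call of Iqce ended without siNC replicate 2 or 3 or untreated replicate 2 or 3 (highest adjusted p = 0.099).

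Of the NFI family, 2 of 4 rose and 1 fell, where 7.41% of all tested genes rose and 21.3% fell. Nfia had 44, 44 and 44 regions against 32, 20 and 30 (log2 change 0.69, SE 0.18, adjusted p = 0.0313), and Nfib 113, 87 and 74 against 66, 58 and 60 (0.55, SE 0.16, adjusted p = 0.0469). The Nfia call ended without any 1 of the siNC libraries or untreated replicate 3 (highest adjusted p = 0.127), and the Nfib call without siNC replicate 1 or 2 or any 1 untreated library (highest adjusted p = 0.142). Nfix had 32, 36 and 31 against 55, 49 and 48 (-0.60, SE 0.12, adjusted p = 0.0115), a call that ended without siNC replicate 3 (adjusted p = 0.0504) and when libraries were scaled to the same total (-0.22, adjusted p = 0.236). The start of Nfix ranked 9136, 5780 and 6311 in untreated lists and 15304, 17315 and 19452 with siNC.

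Genes that sense or use small RNAs gave no uniform change. Over all tested genes 7.41% rose and 21.3% fell, shares that the counts of each list here are read against. Of the RNA interference machinery 0 of 11 rose and 4 fell (Drosha, Tnrc6c, Tsn and Tsnax). Of sensors of foreign RNA 1 of 7 rose, Ifih1 (5, 6 and 5 against 3, 2 and 3, adjusted p = 0.0258), and 1 fell, Ddx58. The calls of Drosha, Tsnax, Ifih1 and Ddx58 all ended without siNC replicate 2 and without siNC replicate 3, and those of Tnrc6c and Tsn, which lies in the dense run of chromosome 1, did not. Of interferon-stimulated genes 0 of 3 tested rose or fell. By gene starts, siNC lists held 11, 11 and 11 of 18 interferon-stimulated genes and untreated lists 7, 9 and 8 at 100000 summits. Ifit1 and Ifi35 were the 2 gained, at ranks 58730, 46665 and 29372 for Ifit1, and both were absent from the whole untreated lists. Of all 17492 genes, 200 (1.14%) had a start gained at 100000 summits. Over all genes the starts held numbered 9366 ± 57.0 with siNC and 8680 ± 435 without (exact permutation p = 0.1, adjusted p = 0.14), so the counts of starts held are read against that. The start of Ago4, which binds small RNAs, was gained too, as was that of Dnmt3b, a DNA methyltransferase. Unlike Ifit1 and Ifi35, both were found in whole untreated lists. Ago4 was absent there in the first and at ranks 125665 and 115182 in the others, and Dnmt3b was at 135293, absent and 170598. At 10000 summits the starts of Sidt2, which carries double-stranded RNA across membranes, and Etv1 were gained. There 115 of all genes (0.657%) had a start gained. For inflammatory targets 0 of 6 rose or fell, and for AP-1 and immediate early genes 1 of 18 rose (Nr4a2) and 2 fell (Nr4a1 and Nr4a3). For heat shock genes 0 of 6 rose and 1 fell (Hsf1), for the unfolded protein response 0 of 10 rose and 1 fell (Atf6), and for p53 targets 1 of 7 rose (Bbc3) and 1 fell (Gadd45a). Scaled to the same total, 1 heat shock gene, 3 unfolded protein response genes, 3 p53 targets and 1 interferon-stimulated gene rose and 0 of these fell. The calls of Hsf1 and Atf6 held whichever library was left out. Those of Nr4a1, which lies in a dense run, Nr4a2, Nr4a3, Bbc3 and Gadd45a ended without siNC replicate 3, and for all but Nr4a1 and Nr4a3 without other libraries too (highest adjusted p from 0.0518 for Nr4a3 to 0.200 for Gadd45a).

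Of ribosomal protein genes 0 of 12 rose and 2 fell (Rpl14 and Rpl38), and of proteasome genes 0 of 8 rose or fell. In this comparison 7.41% of all tested genes rose and 21.3% fell. Of sterol and lipid genes 0 of 10 rose and 2 fell (Srebf2 and Fasn), of cell cycle genes 0 of 10 rose and 1 fell (Mcm5), and of chromatin regulators 2 of 22 rose (Chd7 and Eed) and 2 fell (Kmt2d and Tet3). Scaled to the same total, 3 ribosomal protein and 4 cell cycle genes rose and 0 of either fell, and 6 chromatin regulators rose and 2 fell. The calls of Fasn and Tet3 held whichever library was left out. Rpl38 was called in 0 of 6 such fits. The calls of Rpl14, Srebf2, Mcm5 and Chd7 ended without siNC replicate 2 and without siNC replicate 3, that of Eed without siNC replicate 2 and that of Kmt2d without siNC replicate 1 or 3 or untreated replicate 2 (highest adjusted p from 0.0655 for Srebf2 to 0.192 for Eed). Among markers of other cell types some fell, where 21.3% of all genes did. Irf8, a myeloid factor, had 10, 5 and 7 regions against 38, 37 and 26, Sox10, an oligodendrocyte factor, 2, 2 and 2 against 8, 13 and 11, and Aldh1l1, an astrocyte gene, 6, 7 and 4 against 19, 18 and 15. Starts of markers for oligodendrocytes, endothelial cells and fibroblasts were held by 0 libraries at 10000 summits. Of endothelial markers 2 of 4 fell (Pecam1 and Erg), of Purkinje and interneuron markers 1 of 4 rose (Foxp2) and 1 fell (Pvalb), and of fibroblast markers 1 of 5 rose (Prrx1) and 2 fell (Col1a1 and Thy1). Irf8 was the 1 tested of the immune list, and 1 of 6 oligodendrocyte and 1 of 4 astrocyte markers fell. The calls of Pecam1, Prrx1, Col1a1 and Thy1 ended without siNC replicate 3 (highest adjusted p from 0.0515 for Pecam1 to 0.129 for Prrx1). Scaled to the same total, 2 astrocyte markers rose and 1 fell, 1 oligodendrocyte marker rose and 1 fell, 2 fibroblast markers rose and 0 fell, and the other 3 lists had the same counts. The part of these cells in the results was not tested.

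Of the 10 called genes with the largest log2 drop, all but Foxl1 of chromosome 8 stood on chromosome 1. Dpp10, which encodes a partner of potassium channels, had 2, 1 and 0 regions against 161, 217 and 104. Marco, a scavenger receptor, had 0 in each siNC library against 57, 87 and 47, Cntnap5a 0 against 70, 80 and 41, and C1ql2 0 against 58, 53 and 42. Cfap221, Tmem37, Steap3, Cntnap5b, En1 and Foxl1 completed the first 10. Outside the dense runs, Cntnap5a, Foxl1, Cntnap5b, Dnah8, Foxf1, Crhr2, Tmem215, Dnah17, B020011L13Rik and Dio3 came first, a list added after the values were seen. Of these, Cntnap5a, Cntnap5b and B020011L13Rik lie on chromosome 1 in bins at least 2 times as dense in the untreated lists. Those bins are outside the dense runs only because they stayed under the floor of 100 summits. In the other direction Itga4, an integrin subunit, had 4, 8 and 7 regions against 0, 1 and 0. Without siNC replicate 2 its mean was under 3 regions and it was not tested. Fam135a, P3h2, Cobl, Lhfpl3, Faxc, Rps6ka3 and Iftap followed, with Zic1 and Zic4. Genes near 0 in 1 group, as here, entered the test only through the other group, so their calls are given as a description. Of these 10, Cobl, Lhfpl3, Zic1 and Zic4 were called whichever library was left out. At 10000 summits, 1 gene of 275 had more regions (Ttc39b, 0.364%) and 8 had fewer (Fgd2, Plekha6, Ccdc93, Clasp1, Ralgps1, Grm4, Gnai2 and Cdh20, 2.91%), with 29 and 46 at an unadjusted p below 0.05.

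Gene starts changed for 200 genes gained (1.14%) and 56 lost (0.32%) of 17492 at 100000 summits, and 115 gained (0.657%) and 61 lost (0.349%) at 10000. Of the 200 gained, 66 were absent from the whole untreated lists, and of the 56 lost, 15 from the whole siNC lists, counts that are not comparable because whole lists differ in length. At 10000 the gained starts of best rank were those of Gm36298, St8sia1, AB010352, Chmp2a, Scg3, Gxylt1, Sgk1, Ptges2, 5430403G16Rik and Ids, and the lost ones those of Flywch1, Arf2, Hdgf, Pim1, Nusap1 and Oip5 (which share a region), Prkar2b, Dexi, Ppil1 and Chaf1b. Sgk1, a stress-responsive kinase gene, ranked 1552, 4355 and 5506 with siNC and 12460, 79765 and 23738 without. At 100000 the gained starts of best rank were those of Pdgfc, a growth factor gene, Tbc1d15, Riox2, Zfp418, Zfp874a, Pdlim5, C1qtnf3, Pgrmc1, Inpp4a and Bcr. Pdgfc ranked 9685, 18017 and 9611 with siNC and 183951, 127473 and 154011 without. The lost starts were those of Gm52875, Gm5373, Tmem37, Pi16, Dpp10, Rsph9, Gnmt, Card10, Smim41 and Fam43b. Tmem37 ranked 24903, 19362 and 41620 without treatment and was absent from all siNC lists.

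The promoters below show what such starts look like, from 250 bases before to 50 after the start, from RefSeq on GRCm38.p6 (the mm10 assembly). The first 2 were gained with siNC, the next 3 lost, and the last, Zic4, gained. Capitals mark the letters GGGCGG (Sp), CCAAT (NFY), CGCATGCG (NRF1 core), CCGGAAG (ETS), TGACGTCA, TGANTCA (AP-1), AAGATGGCG (YY1) or TATAAA, on either strand. The palindromic NFI site was searched too. Pdgfc and Zic4 held none of them. They lie at chr3:81036166-81036465, plus strand, chr10:115251444-115251743, minus strand, chr6:119537688-119537987, plus strand, chr1:120073731-120074030, minus strand, chr1:124045510-124045809, minus strand and chr9:91368722-91369021, plus strand.
Pdgfc: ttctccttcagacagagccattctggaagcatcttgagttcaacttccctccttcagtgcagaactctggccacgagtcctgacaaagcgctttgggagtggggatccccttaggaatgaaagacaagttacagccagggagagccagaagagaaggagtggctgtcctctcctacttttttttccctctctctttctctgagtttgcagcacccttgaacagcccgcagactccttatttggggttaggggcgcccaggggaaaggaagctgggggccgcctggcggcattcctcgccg
Tbc1d15: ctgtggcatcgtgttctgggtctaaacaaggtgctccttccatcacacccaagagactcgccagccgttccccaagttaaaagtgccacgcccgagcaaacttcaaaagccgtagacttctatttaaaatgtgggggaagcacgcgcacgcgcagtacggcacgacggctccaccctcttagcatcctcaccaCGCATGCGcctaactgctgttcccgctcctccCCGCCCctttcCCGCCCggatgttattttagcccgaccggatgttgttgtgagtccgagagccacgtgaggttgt
Gm52875: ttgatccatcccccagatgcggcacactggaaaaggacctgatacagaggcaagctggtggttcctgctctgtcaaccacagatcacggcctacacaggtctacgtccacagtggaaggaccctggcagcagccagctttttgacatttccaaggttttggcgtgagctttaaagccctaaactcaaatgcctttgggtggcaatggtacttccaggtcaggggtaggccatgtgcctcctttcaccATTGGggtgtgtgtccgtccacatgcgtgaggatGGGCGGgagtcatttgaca
Tmem37: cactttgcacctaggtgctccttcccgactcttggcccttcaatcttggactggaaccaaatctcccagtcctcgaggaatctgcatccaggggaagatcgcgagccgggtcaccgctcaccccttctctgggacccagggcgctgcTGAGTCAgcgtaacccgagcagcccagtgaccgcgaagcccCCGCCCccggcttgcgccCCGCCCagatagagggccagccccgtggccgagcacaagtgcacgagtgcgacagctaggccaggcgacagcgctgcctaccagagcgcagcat
Dpp10: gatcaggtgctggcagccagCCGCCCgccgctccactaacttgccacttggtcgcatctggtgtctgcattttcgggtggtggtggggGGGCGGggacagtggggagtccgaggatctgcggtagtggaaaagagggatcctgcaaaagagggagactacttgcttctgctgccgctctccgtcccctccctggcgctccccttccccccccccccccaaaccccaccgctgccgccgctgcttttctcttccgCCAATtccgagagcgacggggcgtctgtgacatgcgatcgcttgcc
Zic4: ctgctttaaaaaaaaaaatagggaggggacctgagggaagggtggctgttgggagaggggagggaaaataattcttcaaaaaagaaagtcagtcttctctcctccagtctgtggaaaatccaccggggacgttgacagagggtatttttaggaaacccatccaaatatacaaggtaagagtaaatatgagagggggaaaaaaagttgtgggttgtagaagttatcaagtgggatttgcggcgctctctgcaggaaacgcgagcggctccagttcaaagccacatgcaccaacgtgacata

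The siNC summits lay 46, 281 and 72 bp after the start of Pdgfc and 19, 23 and 50 bp after that of Tbc1d15. At Tmem37 untreated summits lay 505 and 20 bp after and 308 bp before the start. At 100000 summits GGGCGG was in 53.9% of the 258 gained starts and 40.0% of the 75 lost ones. It was in 70.2% of the 7900 held in all 6 libraries (shared) and 18.5% of those held in none, against 46.2% of all 21263 promoters. CCGGAAG was in 12% of gained, 1.33% of lost, 20.9% of shared and 11.6% of all promoters, and TATAAA in 10.5%, 6.67%, 5.48% and 12.6%. The median GC content was 59.7% in gained, 56.3% in lost, 62.3% in shared and 56.3% in all promoters. The ratio of observed to expected CpG was 0.748 in gained, 0.275 in lost and 0.804 in shared starts, against 0.567 in all. At 10000 summits GGGCGG was in 62.3% of the 130 gained starts and 71.8% of the 78 lost ones. Median GC content was then 61% in gained and 63% in lost starts, so both orders were reversed. The CpG ratio (0.834 and 0.780), CCGGAAG (20.8% and 15.4%) and TATAAA (7.69% and 3.85%) stayed higher in gained starts. Of all promoters, 38.2% held CCAAT, 2.52% CGCATGCG, 2.23% TGACGTCA, 6.99% TGANTCA, 1.83% AAGATGGCG and 0.0329% the NFI site. Matches describe the letters only, and no match says nothing about the factor.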

How the data were processed

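The deposited files are 1 list of summits per library, with chromosome, position and a score read as a -log10 of a p or q value; whether p or q is not stated. MACS2, Bowtie2, Picard and mm10 are named, without versions, per the submitters' processing notes. Only chromosomes 1 to 19, X and Y were used. Kept summits of the 6 libraries were merged by rank into regions of 500 bp that do not overlap, each called occupied where a library had a kept summit in it. Regions went to the smallest of 21887 protein-coding genes holding their centre, or the nearest within 100 kb. Gene starts came from the RefSeq promoter table, for 17492 genes. Genes were tested with limma 3.58.1 in R 4.3.3 (trend, Benjamini-Hochberg adjustment), the rest with exact two-sided permutation tests over 14 comparisons in Python 3.11.15. Scripts were tested on simulated data. Genes named are the 10 with the largest log2 change in each direction among calls without overlap, the 10 gene starts (at each list length) and, at 10000 summits, the 5 regions of best rank in each direction, called list members, the NFI genes, Ptch1, Gli1, Gli2, Gli3, Atoh1 and Mycn, and list members whose start 1 group held in all libraries and the other in none. The comparison and the 23 gene lists were chosen with earlier results of these data known. Alternatives changed list length, region size, region source, ties, scaling, filter, pseudocount, libraries and block.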

Additional observations from a re-analysis of the deposited data

How the results depend on the processing

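In counts, these values moved. Regions gained and lost at 100000 summits (6963 and 1183) were 2486 and 577 at 50000 summits and 13618 and 2480 in whole lists; lost were 1828 with 1000 bp regions and 703 without the dense runs. Gene starts lost (56) were 132 within 2 kb. Leaving out 1 library in turn gave 8548 to 10643 gained and 1334 to 5152 lost regions, 235 to 499 gained and 63 to 138 lost gene starts, and at 10000 summits 598 to 704 gained and 413 to 687 lost regions, and 159 to 248 gained and 77 to 131 lost starts, since fewer libraries had to match. The genes with more regions (500) were 94 to 502 and those with fewer (1435) 710 to 1263 when 1 library was left out. They were 1 and 8 at 10000 summits, 146 and 547 at 50000, 1385 and 933 at the same total, 961 and 952 relative to the chromosome mean; more were 788 with no filter, 1017 with all 12 VDR libraries in 1 fit, and 299 with 1000 bp regions. With the replicate block, 237 had more and 984 fewer. Deviations of same-numbered libraries had correlations of -0.04, -0.04 and 0.07, and those of unlike number lay between -0.098 and 0.12. Whether the numbers pair the samples cannot be told from these values. The sign turned for genes with no call: Nfic was -0.14 relative to the chromosome mean, -0.33 and -0.068 with other tie orders, -0.27 at 50000 summits and between -0.11 and 0.14 with 1 library left out; Ptch1 -0.047 relative to the chromosome mean; Mycn -0.47 at 10000 summits, -0.26 with 1000 bp regions, -0.084 with ties in genome order and between -0.030 and 0.45 with 1 library left out; Gli1 between -0.044 and 0.46 with 1 library left out. Atoh1, called at 100000 summits, was -0.11 at 10000. The cause was not tested. Read depth is unknown and limits every comparison.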
